A study of Mus musculus with 9 samples.

Results

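The expression of all measured genes in layer A was set against that in layer B for the mouse piriform cortex, the cortical area that receives odour information directly from the olfactory bulb. The comparison used the 3 samples labelled layer A and the 3 samples labelled layer B among the 9 samples of the series. The 3 samples of layer C were not compared. They entered the choice of transcripts and genes, the scaling of libraries and the estimate of the spread between samples. All samples came from wild-type C57BL/6 mice, aged 8 weeks by the labels, whereas the study's methods give a different age. The mice carried no allele and received no treatment that the labels name. Tissue of each layer was cut from fresh-frozen sections by laser capture, in which a laser excises a chosen area under the microscope, and the RNA was amplified before sequencing. The sources used here do not state whether a sample pools several animals or whether replicates came from separate animals. The p-values therefore measure only the spread between these samples, which may be technical. No source used here says which letter stands for layer I, II or III. The letters are therefore kept. Each gene was represented by its most abundant transcript, and 15185 of 33984 genes with an identifier were compared. Each of these reached 10 counts in 3 or more samples.

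The piriform cortex has a superficial layer in which the axons of the olfactory bulb end on dendrites and in which neuronal cell bodies are sparse, a compact layer of excitatory cell bodies beneath it, and a deeper layer that mixes excitatory and inhibitory cells. Astrocytes, microglia and blood vessels run through all layers, and the pia and its fibroblasts cover the brain surface. Messenger RNA lies mostly in cell bodies, but a set of transcripts is carried into dendrites and translated near synapses. Fewer cells of a type and less RNA of that type per cell cannot be told apart in samples of this kind.

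Total counts lay between 23271221 and 44224318 in the 6 samples. The mitochondrial genome took 72.6%, 67.2% and 56.4% of the counts in the layer A samples and 13.1%, 18.6% and 30.1% in the layer B samples. Nearly all of it was mitochondrial ribosomal RNA, with 70.2%, 65.8% and 55.3% of the counts in layer A and 12.8%, 18.2% and 28.1% in layer B. The shares of the mitochondrial genome did not overlap, and the exact two-sided permutation test gave the smallest p-value that 3 against 3 samples allow (p = 0.1). Counts outside the mitochondrial genome therefore numbered 6929782, 7643560 and 19051783 in layer A and 22117880 to 30912343 in layer B, and the depth for other genes was lower in layer A. Intervals and floors given below cover counting error only, since reads carried no molecular identifiers. The part of the mitochondrial share and of depth in the results below was not tested; 3625 genes differed when mitochondrial genes were left out and 3438 when libraries were thinned to one total. Among pairs of samples of one layer, correlations of log2 levels across genes were 0.917 to 0.932 in layer A, 0.981 between layer B replicates 1 and 2, and 0.92 and 0.908 between layer B replicate 3 and these 2. Layer B replicate 3 thus stood apart from the other two.

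Of the genes tested, 3698 (24.4%) differed between the layers at an adjusted p-value under 0.05 in edgeR's quasi-likelihood test, 2257 (14.9%) higher in layer A and 1441 (9.49%) higher in layer B. The differences were larger in the direction of layer A. The median log2 fold change, always given as layer A minus layer B, was 2.48 (5.57-fold) among genes higher in layer A, and 1471 of them exceeded a log2 fold change of 2. Among genes higher in layer B the median size was 1.37 (2.59-fold), and 185 exceeded 2. The median over all genes tested was -0.13. The plot of fold change against level shows the asymmetry.

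**Figure D1:**
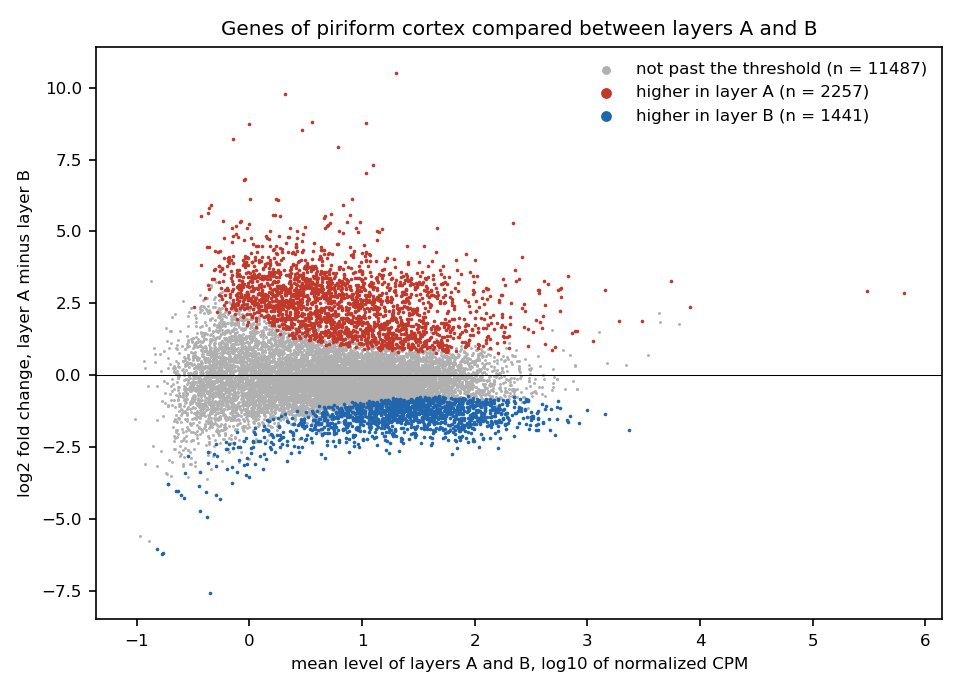
Log2 fold change of each gene (y axis, layer A minus layer B, fitted value) against its mean level in the 2 layers (x axis, log10 of normalized CPM), 1 point per gene. The 2257 red genes were higher in layer A and reach further from 0 than the 1441 blue genes higher in layer B, whose median size was 1.37 against 2.48.

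Consistency was read from the 9 possible pairs of 1 layer A sample and 1 layer B sample, using log2 ratios of normalized CPM (counts scaled to a fixed library total with TMM factors) with a prior count of 2. Of all genes tested, 20.4% exceeded layer B in all 9 pairs, and in 18.8% layer B exceeded layer A in all 9 pairs. Of the genes called higher in layer A, 2219 of 2257 (98.3%) were separate in all 9 pairs, and the remaining 38 held their direction in at least 6. Of the genes called higher in layer B, 1373 of 1441 (95.3%) were separate in all 9 pairs, and of the 68 others 54 were separate once layer B replicate 3 was left out. Calls and pairs rest on the same values, so that high shares among called genes follow largely from the calling. In 1397 genes higher in layer A even the least different pair exceeded a log2 ratio of 1, and in 514 it exceeded 2. Among genes higher in layer B, 274 and 9 did so. A further 2352 genes were separate in all 9 pairs without being called. The number of genes called higher in layer B fell when some single libraries were left out. It fell from 1441 to 789 without layer A replicate 1, to 891 without layer A replicate 2 and to 906 without layer B replicate 1. In the same fits the number called higher in layer A fell from 2257 to 1782, 1903 and 1653. The part of the smaller number of samples in this was not tested. The number of genes separate and higher in layer B rose from 2852 to 4409 without layer B replicate 3. This number rose, to 3207 or more, without any one sample of layers A and B, since fewer samples then have to be separate.

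**Figure D2:**
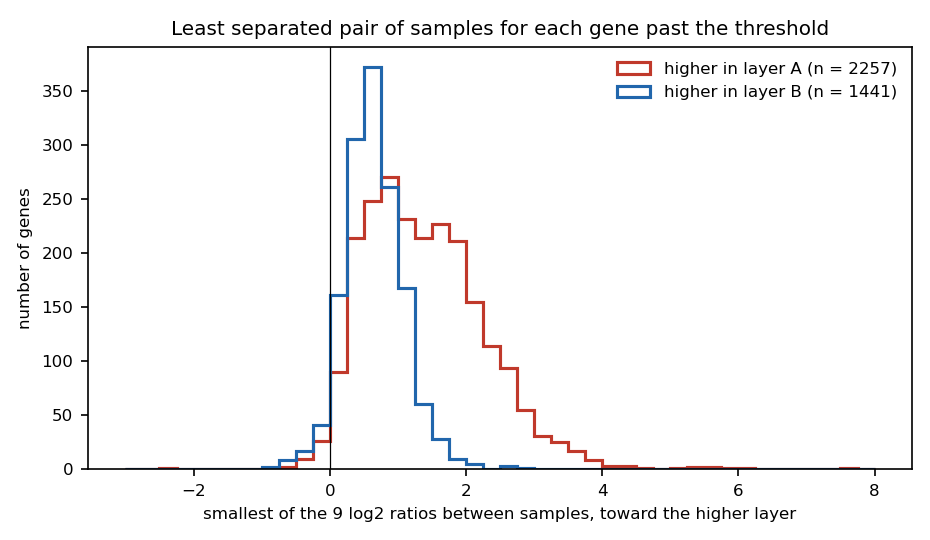
Number of genes past the threshold (y axis) by the smallest of their 9 log2 ratios between samples, counted toward the layer in which the gene was higher (x axis). Genes higher in layer A (red, 2257) spread to larger values than genes higher in layer B (blue, 1441), and values left of 0 are genes whose samples overlapped.

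The 12 protein-coding genes with the largest difference toward layer A, among those with at least 10 counts in each sample and no overlap, were Ptgds, Igf2, Fmo2, Myh11, Padi2, Vwf, Cped1, Ndnf, Sned1, Tnc, Stra6 and Oasl2, with log2 fold changes from 4.34 to 5.28. Ptgds (ENSMUSG00000015090, chr2:25466709-25469842 of GRCm38), the synthase of prostaglandin D2, stood at 163, 329.7 and 778 normalized CPM in layer A replicates 1, 2 and 3 and at 8.57, 7.19 and 16.8 in those of layer B. The layer A samples differed widely among themselves, yet the lowest of them was well above the highest layer B sample (log2 fold change 5.28 ± 0.80 (SE), adjusted p = 0.000266). Igf2 (ENSMUSG00000048583, chr7:142650766-142657496), a secreted growth factor, measured 83.5, 64.4 and 124 CPM in layer A and 1.47, 1.19 and 5.04 CPM in layer B (5.12 ± 0.52, adjusted p = 2.14e-05). Among genes of the vessel wall, Myh11, the myosin heavy chain of smooth muscle, measured 43.9, 11.5 and 32.5 CPM against 0.617, 0.904 and 1.02 CPM. Vwf, a clotting glycoprotein made by endothelial cells, measured 19.99, 13.3 and 20.7 CPM against 0.502, 0.493 and 0.701 CPM. In neither gene did the layers approach each other, with 9 log2 ratios of 3.39 to 5.99 for Myh11 and 4.10 to 5.19 for Vwf.

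Ndnf, a secreted factor that marks superficial interneurons in the neocortex, measured 106, 53.9 and 44.3 CPM in layer A and 2.43, 2.71 and 3.75 CPM in layer B (4.51 ± 0.40, adjusted p = 1.14e-05). Sned1 and Tnc encode matrix proteins. Tnc, which codes for tenascin C, measured 21.4, 12.5 and 11 CPM against 0.425, 0.904 and 0.674 CPM. Sned1 measured 54.4, 32.1 and 57.8 CPM against 1.81, 2.75 and 1.81 CPM. Stra6, the receptor through which cells take up retinol from its carrier, measured 6.09, 7.14 and 11.8 CPM against 0.540, 0.411 and 0.270 CPM, so that levels were low in both layers but separate. Oasl2, an interferon-induced gene, was the most even of the 12 within layer B, at 0.425, 0.411 and 0.432 CPM, against 12.3, 5.24 and 8.53 CPM in layer A. Fmo2, a flavin-containing monooxygenase, was the most even within layer A, at 16.4, 16.1 and 19.1 CPM, against 0.386, 0.493 and 0.593 CPM in layer B. Padi2, an enzyme that converts arginine residues of proteins to citrulline, and Cped1 had log2 fold changes of 4.99 ± 0.47 (adjusted p = 1.59e-05) and 4.58 ± 0.59 (adjusted p = 8.54e-05).

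The 12 genes with the largest difference toward layer B by the same rule were Ano3, Crym, Rprm, Nptx2, Cx3cl1, Kcnv1, Wasf1, Neurod1, Tmem215, Cacng3, Synpr and Dusp14, with log2 fold changes from -2.74 to -2.35. Ano3 (ENSMUSG00000074968, chr2:110655201-110950923), a member of the anoctamin family, measured 3.71, 15.4 and 29 CPM in layer A replicates 1, 2 and 3 and 99.3, 90.6 and 137 CPM in those of layer B (-2.74 ± 0.52, adjusted p = 0.00138). Crym, which codes for a protein that binds thyroid hormone, measured 1.99, 3.24 and 8.13 CPM against 24.8, 24.8 and 41.6 CPM (-2.71 ± 0.47, adjusted p = 0.000677). In both genes layer A replicate 3 came nearest to layer B. Several of the 12 act at synapses. Nptx2, a secreted pentraxin that gathers AMPA receptors, measured 1.99, 4.24 and 7.51 CPM against 22, 17.8 and 45.1 CPM. Synpr, a protein of the synaptic vesicle membrane, measured 8.87, 13.6 and 9.98 CPM against 60.01, 43.8 and 62.9 CPM, and its 9 log2 ratios ran from -2.82 to -1.68. Wasf1, a regulator of actin assembly, measured 19.9, 27.8 and 51.5 CPM against 197, 154 and 207 CPM (-2.49 ± 0.35, adjusted p = 0.000176).

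Neurod1, a transcription factor of excitatory neurons, was the most even of the 12, at 2.25, 2.9 and 2.67 CPM in layer A and 15.2, 12.7 and 15.5 CPM in layer B (-2.46 ± 0.43, adjusted p = 0.000809). Kcnv1, a potassium channel subunit that conducts only together with others, measured 9.13, 16.2 and 35.2 CPM against 109, 91.7 and 153 CPM. Cx3cl1, the neuronal ligand of the microglial receptor Cx3cr1, measured 14.7, 57 and 67.9 CPM against 317, 297 and 204 CPM (-2.54 ± 0.45, adjusted p = 0.000814). Its receptor went the other way, with 24, 30.3 and 24.4 CPM in layer A and 2.86, 4.44 and 7.71 CPM in layer B (2.38 ± 0.37, adjusted p = 0.000308). Rprm, Tmem215, Cacng3 and Dusp14 had log2 fold changes of -2.65, -2.45, -2.41 and -2.35, with adjusted p-values of 0.000882, 0.00101, 9.44e-05 and 0.00425. The plot of the named genes sample by sample shows both sets.

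**Figure D3:**
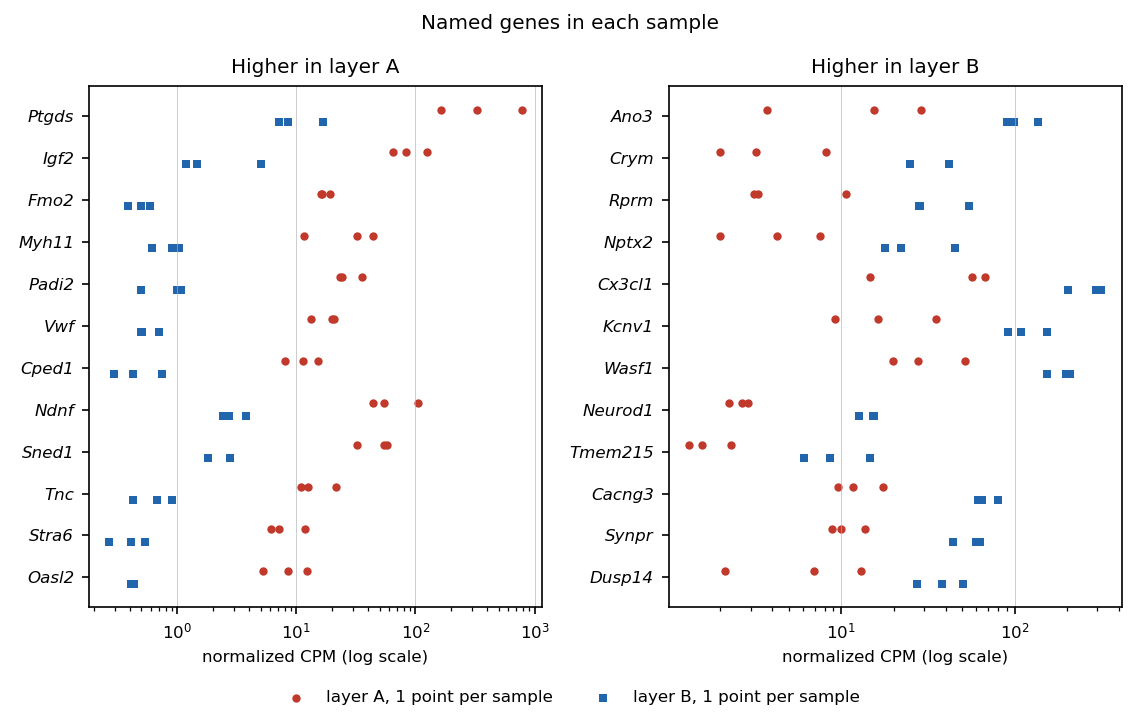
Level of the 12 genes with the largest difference in each direction (x axis, normalized CPM on a log scale), with 1 circle per layer A sample and 1 square per layer B sample. In every gene the circles and squares are separate, as the rule required, and the gap between them is wider in the left panel (log2 fold changes 4.34 to 5.28) than in the right (-2.74 to -2.35).

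At the extremes were genes with at most 3 counts in each sample of one layer. There were 46 such genes among those higher in layer A and 24 among those higher in layer B, and the 6 most abundant of each are given here as ratios of pooled counts with exact 95% intervals. Fmod, a small proteoglycan of collagen fibrils, had counts of 89, 94 and 1079 in layer A and 1, 0 and 3 in layer B, a ratio of 656 (256 to 2413). Myoc, which codes for the secreted protein myocilin, had a ratio of 2118 (586 to 17503). Ratios were 247 (95.7 to 909) for the adhesion gene Mpzl2, 591 (105 to 23422) for the orphan receptor gene Gpr50 and 608 (108 to 24080) for the efflux transporter gene Slc47a1. Slc26a7, an anion transporter, had 21, 33 and 151 counts in layer A and none in layer B, and was at least 22.5-fold higher in layer A when 3 counts per library were taken as the floor. By the rule that chose them, none of the 6 genes had more than 3 counts in any layer B sample.

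The genes nearly undetected in layer A were of low abundance in layer B as well. Tacr1, the receptor of substance P, had counts of 1, 0 and 3 in layer A and 37, 29 and 48 in layer B, a ratio of 13.7 (5.21 to 51.1) toward layer B. Cdhr3, a cadherin-related gene, had a ratio of 11.8 (5.28 to 32.6), Acot3, an acyl-CoA thioesterase gene, 9.23 (3.82 to 29.1), and Spink10, a gene of the serine protease inhibitor family, 23.8 (6.41 to 199). Gm9954 and B230317F23Rik had ratios of 17.8 (4.75 to 150) and 9.61 (3.61 to 36.1). The calls of both of these were lost without single libraries, that of Gm9954 without layer A replicate 1, layer A replicate 3 or layer B replicate 2 (adjusted p = 0.055 to 0.0687) and that of B230317F23Rik without layer A replicate 1, layer A replicate 3 or layer B replicate 2 (adjusted p = 0.0736 to 0.109).

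The promoters of the 2 gene sets were compared because neither set was chosen by sequence. A 300-base window, from 250 bases before to 50 after a RefSeq start of GRCm38.p6 that lay within 100 bases of the start of the tested transcript, was found for 8790 genes. The windows held a median of 17 CG dinucleotides in the 1354 genes higher in layer A, against 21 in the 804 genes higher in layer B and 21 in the 6632 genes not called. Fewer than 10 were found in 33.3% of the genes higher in layer A, in 18.7% of those higher in layer B and in 14.2% of those not called. The cAMP response element half-site (TGACG, either strand) was in 20.8%, 32.5% and 34.5% of these windows in the same order, against 32.2% of all windows. The site of ETS factors (CCGGAAG) was in 8.2%, 11.1% and 20.6%, against 17.8% of all. The TATA box (TATAAA) was in 10.4%, 7.34% and 6.42%, against 7.12% of all. CATCTG, a form of the E-box, was in 12.7%, 13.2% and 10.7%, against 11.2% of all, while CCAAT was in 36.9%, 39.1% and 39.3%, against 38.9% of all. TGACG and CCGGAAG themselves contain CG, so that their shares are not independent of the CG counts above. A match of letters describes the window only. These windows are illustrated by the first 2 of the 12 named genes of each direction whose RefSeq start was that of the tested transcript, printed 5′ to 3′ on the gene's own strand with CG in capitals. Igf2 (chr7:142657447-142657746, minus strand) had 7, Stra6 (chr9:58133825-58134124, plus strand) 5, Rprm (chr2:54085503-54085802, minus strand) 19 and Tmem215 (chr4:40471930-40472229, plus strand) 8.
Igf2, higher in layer A: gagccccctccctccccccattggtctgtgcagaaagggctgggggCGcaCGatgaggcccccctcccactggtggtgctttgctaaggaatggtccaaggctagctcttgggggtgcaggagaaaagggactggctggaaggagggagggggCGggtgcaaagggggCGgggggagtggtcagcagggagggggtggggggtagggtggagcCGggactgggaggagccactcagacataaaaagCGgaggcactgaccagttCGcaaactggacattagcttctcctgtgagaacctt
Stra6, higher in layer A: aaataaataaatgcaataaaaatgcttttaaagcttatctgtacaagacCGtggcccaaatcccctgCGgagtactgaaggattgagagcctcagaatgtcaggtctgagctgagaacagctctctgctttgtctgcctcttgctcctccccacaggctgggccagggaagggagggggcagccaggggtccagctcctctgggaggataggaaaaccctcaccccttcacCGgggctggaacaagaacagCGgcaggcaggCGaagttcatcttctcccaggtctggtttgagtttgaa
Rprm, higher in layer B: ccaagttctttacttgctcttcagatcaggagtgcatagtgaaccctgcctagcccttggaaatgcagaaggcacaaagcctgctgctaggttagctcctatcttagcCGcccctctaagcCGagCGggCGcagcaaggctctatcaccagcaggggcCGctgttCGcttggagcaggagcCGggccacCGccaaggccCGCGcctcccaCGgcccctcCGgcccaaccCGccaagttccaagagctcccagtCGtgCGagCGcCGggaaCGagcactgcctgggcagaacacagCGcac
Tmem215, higher in layer B: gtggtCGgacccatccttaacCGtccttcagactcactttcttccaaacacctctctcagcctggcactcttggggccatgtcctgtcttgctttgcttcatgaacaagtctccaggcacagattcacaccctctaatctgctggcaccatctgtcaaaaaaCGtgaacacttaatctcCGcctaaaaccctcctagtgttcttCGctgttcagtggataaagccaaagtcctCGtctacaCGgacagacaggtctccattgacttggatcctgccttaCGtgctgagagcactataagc

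Genes were next read in 58 lists of markers, families and pathways, each described by how many of its tested members were called in each direction and by its median log2 fold change, to be read against 14.9%, 9.49% and -0.13 over all genes. Some genes stand in several lists. Of the 10 lists with no member called higher in layer A, 1 had a single member past an unadjusted p-value of 0.05 in that direction, as had 4 of the 24 lists with none higher in layer B, and DESeq2 called none of these members. Markers of glia and of the vessels were higher in layer A. All 16 astrocyte markers rose, with a median of 3.10 and a range of 2.04 to 4.30. Aqp4, the water channel of astrocyte endfeet, measured 749, 358 and 376 CPM in layer A and 22.1, 20.8 and 43.3 CPM in layer B (4.10 ± 0.41, adjusted p = 2.02e-05). All 16 markers were separate in all 9 pairs.

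Of 16 microglia markers 15 rose (median 2.35), among them P2ry12, a receptor for nucleotides, with 60.6, 42.8 and 25.8 CPM against 5.02, 4.64 and 8.55 CPM (2.82 ± 0.38, adjusted p = 0.000105). Csf1r, the receptor on which microglia depend for survival, measured 48.6, 52 and 50.5 CPM against 9.42, 10.8 and 14.2 CPM, with 9 log2 ratios of 1.77 to 2.46. All 9 markers of oligodendrocyte precursors rose (median 2.42), for instance Pdgfra, the growth factor receptor that defines these cells, at 93.2, 84.8 and 42.2 CPM against 10.8, 9.53 and 11.3 CPM (2.79 ± 0.33, adjusted p = 4.92e-05), and Cspg4 at 16.8, 17.6 and 16.3 CPM against 2.16, 3.16 and 2.97 CPM. Of 15 markers of myelin and mature oligodendrocytes 6 rose, with a median of 1.46 (2.31 without layer B replicate 3). Mal, a membrane protein of myelin, measured 78.9, 45.9 and 65.3 CPM against 6.52, 7.77 and 26.3 CPM, and layer B replicate 3 was the sample nearest to layer A. The number of called myelin markers was 10 without that sample and 2 without layer B replicate 1 or without layer B replicate 2.

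Of 18 endothelial markers 16 rose (median 2.97). Slc2a1, the glucose transporter of the blood-brain barrier, was even within both layers, with 196, 207 and 217 CPM in layer A and 35.2, 34.8 and 42.1 CPM in layer B (2.47 ± 0.27, adjusted p = 2.89e-05). Of 12 pericyte and smooth muscle markers 11 rose (median 3.18), among them Anpep at 9.66, 4.8 and 14.5 CPM against 0.232, 0.329 and 0.216 CPM and Rgs5, a regulator of G protein signalling in pericytes, at 465, 315 and 226 CPM against 24.1, 27.6 and 62.5 CPM. Of 18 meningeal fibroblast markers 17 rose, with the largest median of all 58 lists, 5.03. The count minimum could be met through layer A alone. Myoc had 1, 0 and 1 counts in layer B and Slc47a1 0, 0 and 1. Among the alternatives, the median of this list was lowest where at least 10 counts in each sample of layers A and B were asked for. The number of its members called higher in layer A ran from 2 to 17 over the alternatives. Col1a2, a chain of type I collagen, measured 16.1, 13.3 and 27.3 CPM against 0.309, 0.205 and 0.836 CPM (5.33 ± 0.53, adjusted p = 2e-05). The summed level of the meningeal list lay between 196 and 485 CPM in the layer A samples and between 7.49 and 21.3 CPM in those of layer B, and that of the astrocyte list between 10133 and 19554 CPM and between 1433 and 2017 CPM. The part of meningeal and vascular tissue in the other differences toward layer A was not tested.

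Macrophages of the brain's borders showed the same direction at low levels. Of 6 tested genes of border macrophages and of MHC class II 5 rose (median 3.84), with Mrc1, the mannose receptor, at 9.4, 6.92 and 8.29 CPM against 0.386, 0.288 and 0.728 CPM (4.09 ± 0.60, adjusted p = 0.000233). H2-Aa, a class II chain, measured 1.32, 3.68 and 3.14 CPM in layer A (log2 fold change 4.85). Its layer B samples held only 3, 1 and 4 raw counts. Among 4 tested blood genes Ptprc, the leukocyte marker also named CD45, rose (2.70 ± 0.62, adjusted p = 0.00522), and Hbb-bt rose (2.87 ± 0.83, adjusted p = 0.0198), the latter not without layer A replicate 2, layer A replicate 3, layer B replicate 1 or layer B replicate 2 (adjusted p = 0.0542 to 0.0685). Of 10 choroid plexus and ependymal markers only Kcnj13, Foxj1 and Kl reached the count minimum, and Kcnj13, a potassium channel, rose (3.54 ± 0.66, adjusted p = 0.00128), while the median of these 3, 0.54, ran from -0.11 without layer A replicate 3 to 1.38 without layer B replicate 2.

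**Figure D4:**
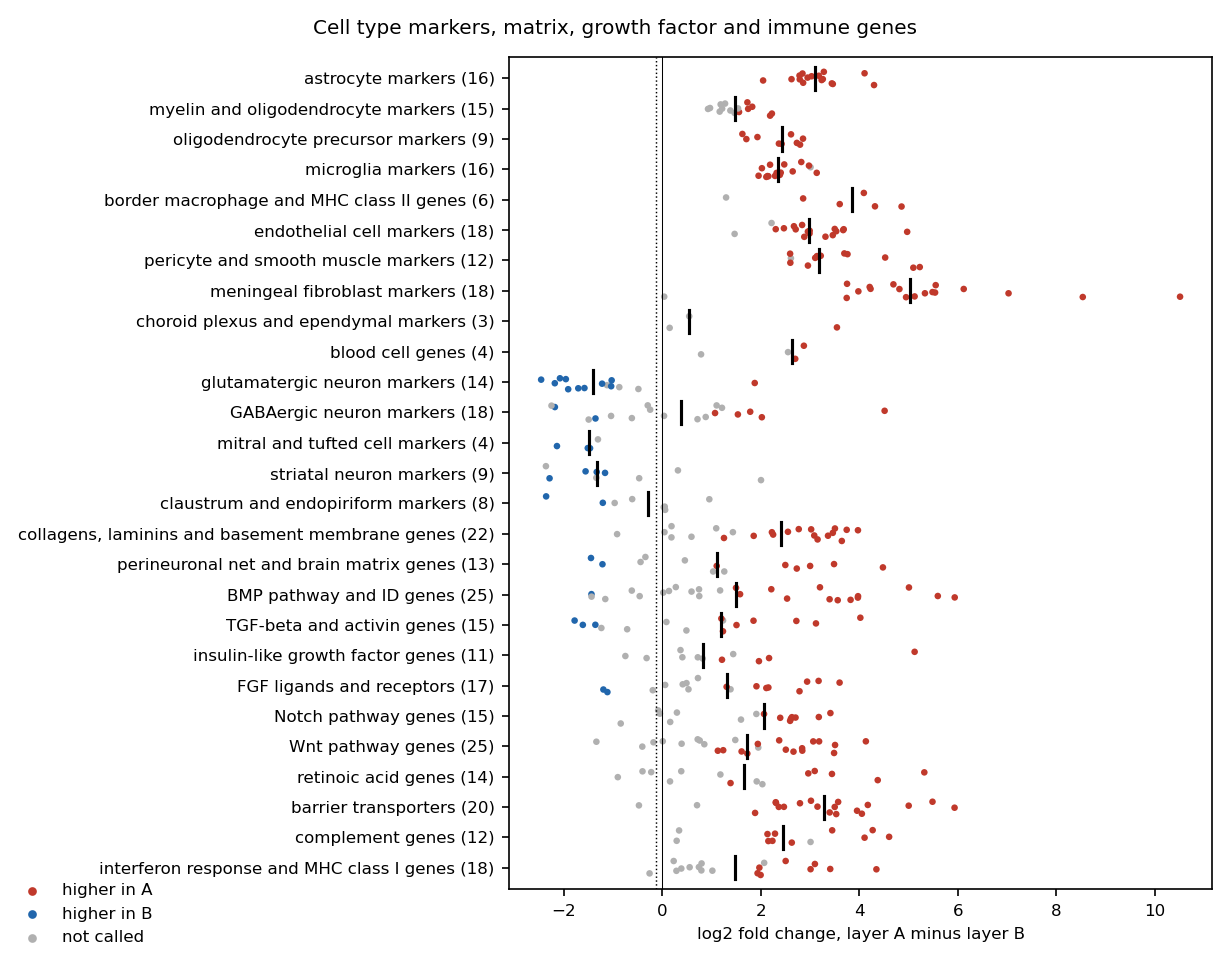
Log2 fold change (x axis, layer A minus layer B) of each tested member of the lists of cell types, matrix, growth factors and immune genes (rows, number of tested members in brackets), 1 point per gene, red where higher in layer A, blue where higher in layer B and grey where not past the threshold. Black bars mark list medians and the dotted line the median of all genes, and Cdh1 and Chrna3 were left out of this and the other plot of lists because all samples of one layer had 0 counts. The medians of glial, vascular, meningeal, matrix and most growth factor lists lie above 0, and that of glutamatergic markers lies at -1.41. The largest, 5.03, is that of meningeal fibroblast markers, some of them nearly absent from layer B.

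Markers of excitatory neurons were higher in layer B. Of 14 glutamatergic markers 10 rose in layer B and 1 in layer A, with a median of -1.41. Nptx1, a pentraxin that gathers AMPA receptors, measured 29.6, 68.3 and 50.5 CPM in layer A and 290.5, 242 and 143 CPM in layer B (-2.19 ± 0.35, adjusted p = 0.000446). Sv2b, a glycoprotein of synaptic vesicles, measured 98.6, 197 and 165 CPM against 623, 524 and 588 CPM (-1.91 ± 0.33, adjusted p = 0.00067). The exception was Camk2a, the kinase subunit whose RNA is carried into dendrites, at 6458, 4462 and 3351 CPM in layer A and 1272, 1569 and 1054 CPM in layer B (1.87 ± 0.37, adjusted p = 0.00174). The number of markers higher in layer B fell from 10 to 6 without layer A replicate 1 or without layer A replicate 2.

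Of 18 markers of GABAergic neurons 5 rose in layer A, among them Ndnf, Gad2, Adarb2 and Dlx1. In layer B 2 rose, Lamp5 and Sst, and the median was 0.37. Without layer B replicate 3, 7 rose in layer A and 1 in layer B with a median of 1.08, and the median was 0.09 without layer B replicate 1 and 0.16 without layer B replicate 2. Gad2, an enzyme of GABA synthesis, measured 418, 229.8 and 189.96 CPM against 51.7, 46.3 and 109 CPM (2.02 ± 0.40, adjusted p = 0.00184). Lamp5, a membrane protein of neurogliaform cells that excitatory neurons also express, measured 14.2, 17 and 22.9 CPM against 45.1, 40.8 and 53.3 CPM (-1.36 ± 0.29, adjusted p = 0.00297). Sst, the somatostatin precursor, rested on 1 library, since it measured 12.4, 5.36 and 6.6 CPM in layer A and 7.49, 7.6 and 94.5 CPM in layer B, and its log2 fold change of -2.18 ± 0.75 (adjusted p = 0.0434) became 0.09 without layer B replicate 3 (adjusted p = 0.885). Its call was also lost without any one of layer A replicates 1, 2 and 3 and of layer C replicates 1 and 2, with adjusted p-values of 0.0545 to 0.15.

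Neuronal markers of neighbouring structures were at most partly called. Of 4 tested markers of mitral and tufted cells, the output neurons of the olfactory bulb, 3 rose in layer B (median -1.49), among them Thy1, a surface protein of many projection neurons, at 67.9, 105 and 139 CPM against 316, 301 and 249 CPM (-1.47 ± 0.31, adjusted p = 0.00295). The defining markers Tbx21 and Eomes did not reach the count minimum, and 1 of the 4 was called without layer A replicate 2. Of 9 striatal markers 4 rose in layer B (median -1.33), among them Penk, Pde10a and Drd1, and 2 did so without layer A replicate 1 or without layer B replicate 1, Pde10a losing its call without layer A replicate 1, layer B replicate 1 or layer B replicate 2 (adjusted p = 0.0562 to 0.073). Of 8 markers of claustrum and endopiriform nucleus 2 rose in layer B (median -0.29), Synpr and Gng2, a G protein subunit, and the median turned to 0.05 where at least 10 counts in each sample were asked for. With 1 library left out it ran from -0.70 without layer A replicate 3 to -0.13 without layer A replicate 2. Nnat, of the same list, measured 26.7, 59.2 and 48.4 CPM against 25.3, 25.3 and 19 CPM and was not called (adjusted p = 0.0975).

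Receptors for glutamate and GABA were mostly higher in layer B, and in each family 1 or 2 members were called in the other direction. Of 16 AMPA receptor genes 10 rose in layer B and 1 in layer A, with a median of -1.22. Cacng3 and Cacng4 both encode auxiliary subunits that carry AMPA receptors to the membrane. Cacng3 measured 9.53, 11.7 and 17.3 CPM in layer A and 80.3, 65.1 and 61.3 CPM in layer B (-2.41 ± 0.32), whereas Cacng4 measured 29.4, 35 and 12.7 CPM and 8.76, 9.04 and 8.95 CPM (1.52 ± 0.36, adjusted p = 0.00561). Of 14 genes of NMDA and kainate receptors 6 rose in layer B and 2 in layer A, with a median of -0.36 that became -0.69 without layer A replicate 3. Grin2b, the NMDA receptor subunit typical of forebrain neurons, measured 19.6, 56 and 56.2 CPM against 223, 240.3 and 81.8 CPM (-2.04 ± 0.43, adjusted p = 0.00283). The obligatory subunit gene Grin1 measured 17.1, 36.6 and 46.8 CPM against 139.7, 163 and 64.7 CPM (-1.86 ± 0.40, adjusted p = 0.00315). Grin2c, another subunit of the same receptor, measured 20.4, 23.1 and 28.2 CPM against 2.12, 3.16 and 6.18 CPM (2.64 ± 0.41, adjusted p = 0.000317), opposite to Grin2b. Grin3a was higher in layer A (0.95 ± 0.31, adjusted p = 0.0339) but not without layer A replicate 1, layer B replicate 1 or layer B replicate 3 (adjusted p = 0.0656 to 0.141). Without layer A replicate 1 or without layer A replicate 2, 3 members of this list were called higher in layer B.

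Of 7 metabotropic glutamate receptor genes 4 rose in layer B and 1 in layer A (median -1.65). Grm5, which couples to phospholipase C, measured 32.3, 42.5 and 48.7 CPM against 151, 132 and 104 CPM (-1.65 ± 0.28, adjusted p = 0.000655). Grm3, which inhibits adenylyl cyclase and is also made by astrocytes, measured 121, 152 and 56.7 CPM against 23.1, 19.2 and 20.1 CPM (2.40 ± 0.35, adjusted p = 0.000231). Of 12 GABA-A receptor subunit genes 7 rose in layer B and 1 in layer A (median -1.09). The 7 became 4 without layer B replicate 1. The gene higher in layer A was Gabrg1, which measured 40.5, 44.1 and 20.6 CPM against 8.03, 6.04 and 14.3 CPM (1.88 ± 0.38, adjusted p = 0.00214).

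On the presynaptic side 16 of 31 genes of synaptic vesicles and the active zone rose in layer B and 1 in layer A, with a median of -1.06. Syngr3, a vesicle membrane protein, measured 19.7, 28.6 and 34.4 CPM against 83.2, 90.4 and 103 CPM (-1.74 ± 0.29, adjusted p = 0.000548). The exception, Syn3, one of the synapsins that tether vesicles, measured 241, 125 and 152 CPM against 14, 17.4 and 34.1 CPM (2.98 ± 0.39, adjusted p = 8.94e-05), while the other synapsin genes, Syn1 and Syn2, were both called higher in layer B. Of 26 synaptic adhesion genes 17 rose in layer B and none in layer A (median -1.04), and 11 did so without layer A replicate 2 or without layer B replicate 1. Lrrtm3, a postsynaptic partner of neurexins, measured 5.82, 11.6 and 14.1 CPM against 49.2, 41.3 and 41.3 CPM (-2.05 ± 0.32, adjusted p = 0.000366). Slitrk3, an organiser of inhibitory synapses, measured 15.1, 17.4 and 16.1 CPM against 67.4, 65 and 46.3 CPM.

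Genes of the postsynaptic density were called in both directions. Of 22 scaffold genes 5 rose in layer A and 6 in layer B, and the median, 0.05, changed sign under 7 of 23 alternative settings. Shank1, a scaffold of excitatory synapses, measured 667, 615 and 520.3 CPM in layer A and 177, 239 and 77.9 CPM in layer B (1.87 ± 0.36, adjusted p = 0.00159). Homer2, which links metabotropic receptors to calcium stores, measured 411, 301 and 140.1 CPM against 68.1, 63.2 and 63.7 CPM (2.13 ± 0.36, adjusted p = 0.000588). Dlg2 was also higher in layer A (1.49 ± 0.34, adjusted p = 0.00443). By contrast, Dlg3, of the same family of membrane scaffolds, was higher in layer B at 19.9, 28.2 and 32.4 CPM against 78.8, 72.4 and 95.6 CPM (-1.61 ± 0.28, adjusted p = 0.000737). Baiap2, an actin regulator of spines, was higher in layer B (-2.28 ± 0.43, adjusted p = 0.00136). Psd3 was called higher in layer A (0.87 ± 0.30, adjusted p = 0.0468) but lost its call without any one of 8 of the 9 libraries, layer A replicate 3 excepted (adjusted p = 0.0505 to 0.168).

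The list of mRNAs known in dendrites had most of its calls in layer A. Of its 17 members 7 rose in layer A (Ddn, Ppp1r9b, Shank1, Camk2a, Eef2, Kif5a and Psd) and 3 in layer B (Lingo1, Cyfip2 and Kalrn), with a median of 0.70. Ddn, which codes for dendrin, a protein of dendrites and spines, measured 466, 443 and 353 CPM in layer A and 128, 156 and 112 CPM in layer B (1.67 ± 0.28, adjusted p = 0.000642). Ppp1r9b, the spine scaffold spinophilin, measured 205, 303 and 229.6 CPM against 70.8, 93.4 and 43.9 CPM (1.83 ± 0.32, adjusted p = 0.000844). Both were higher in every layer A sample than in any layer B sample. Lingo1, a membrane protein that limits myelination and axon growth, measured 36.7, 70.4 and 94.7 CPM against 259.6, 291 and 110.3 CPM (-1.71 ± 0.40, adjusted p = 0.00592). Cyfip2 (-1.01 ± 0.28) lost its call without layer B replicate 1 or layer B replicate 2 (adjusted p = 0.0514 to 0.0623) and Kalrn (-1.12 ± 0.31) without layer A replicate 1 or layer B replicate 2 (adjusted p = 0.0678 to 0.0697), and 1 member was called higher in layer B without layer B replicate 2.

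Channels that set the excitability of neurons were higher in layer B. Of 32 voltage-gated potassium channel genes 22 rose in layer B and none in layer A, with a median of -1.29, and the 22 became 12 without layer A replicate 1 and 13 without layer B replicate 1. Kcnh1, of the ether-a-go-go family, measured 12, 22.2 and 20.9 CPM against 59.8, 66.2 and 52.4 CPM (-1.69 ± 0.29, adjusted p = 0.000718). The silent subunit gene Kcnf1 measured 18.5, 29.5 and 29.98 CPM against 85.5, 76.4 and 77.4 CPM (-1.61 ± 0.29, adjusted p = 0.000927). Of 27 genes of sodium, calcium and HCN channels 14 rose in layer B and none in layer A (median -1.03). Scn2a, a sodium channel of excitatory axons, measured 78, 122 and 88.5 CPM against 349.6, 348 and 208 CPM (-1.65 ± 0.31, adjusted p = 0.00118). Scn3b, a beta subunit, measured 30.7, 34.6 and 27.5 CPM against 136, 130.1 and 76.7 CPM. Layer B replicate 3 was the lowest of the layer B samples in both.

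The other potassium channel genes were called in both directions. Of 22 genes of inward rectifier, tandem-pore and calcium-activated channels 5 rose in layer A and 6 in layer B (median -0.61). The 6 became 3 without layer A replicate 1. The genes higher in layer B included the inward rectifiers Kcnj3, Kcnj9 and Kcnj6, whose products form the channels opened by G proteins. Kcnj10, the inward rectifier of astrocytes, measured 217, 180.3 and 116 CPM in layer A and 20.1, 22.2 and 29.2 CPM in layer B (2.84 ± 0.31, adjusted p = 2.97e-05). Kcnj16, which assembles with it, measured 156, 55.8 and 38.9 CPM against 8.61, 8.92 and 24.9 CPM (2.55 ± 0.55, adjusted p = 0.0034). Kcnj8, a channel of pericytes, and Kcnn2, a calcium-activated channel, had log2 fold changes of 3.76 ± 0.62 and 2.30 ± 0.37. Kcnk2, a tandem-pore channel, was higher in layer A (0.86 ± 0.30, adjusted p = 0.0489), but not without any one of 7 libraries, all but layer B replicate 3 and layer C replicate 2 (adjusted p = 0.0518 to 0.164).

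**Figure D5:**
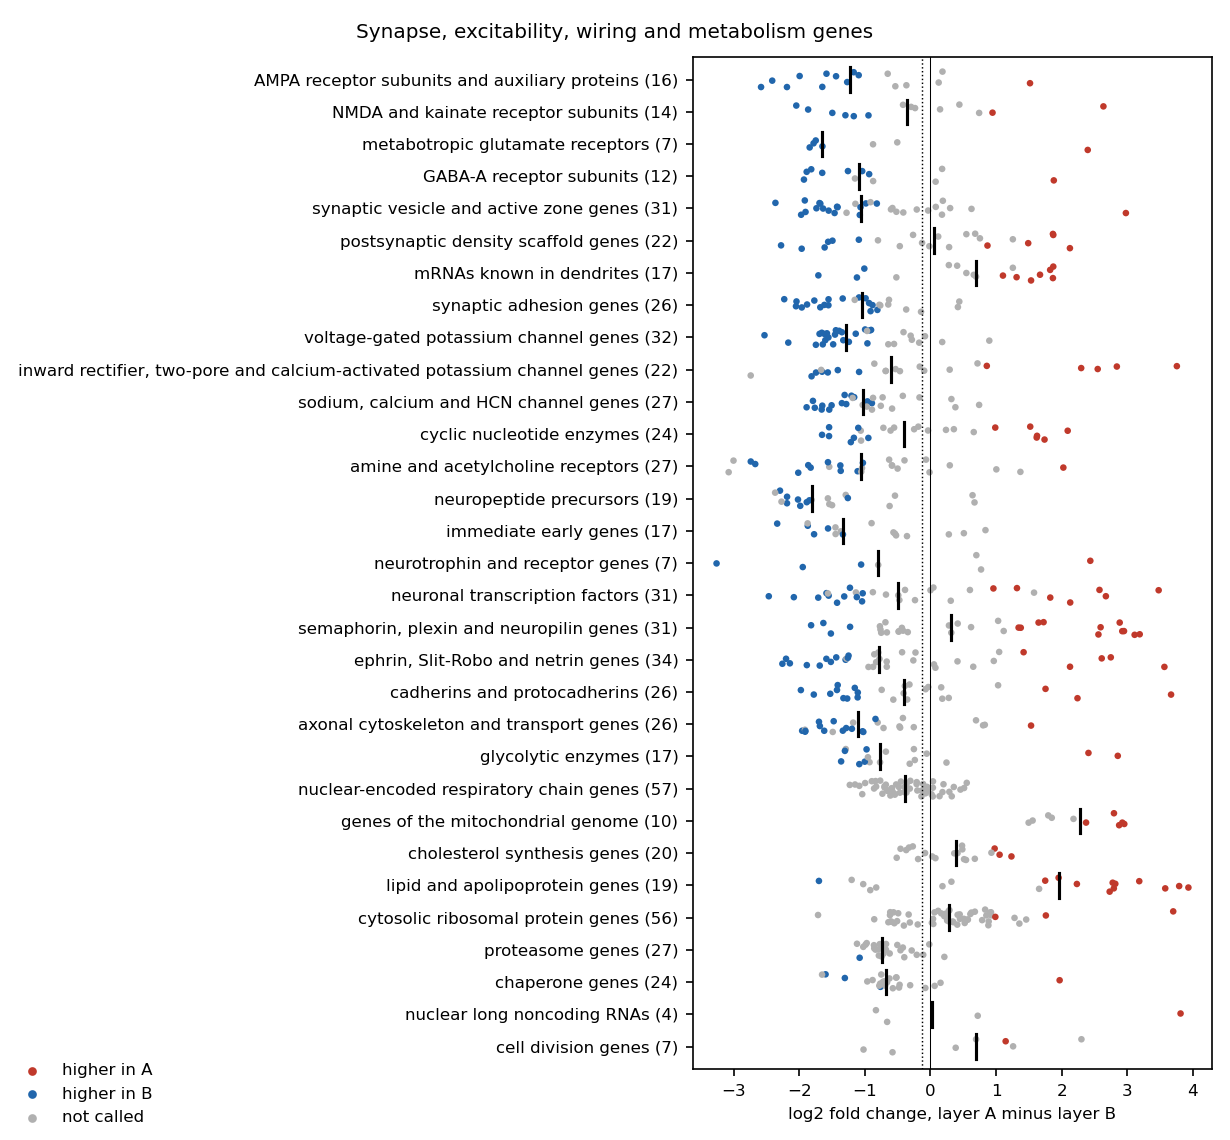
Log2 fold change (x axis, layer A minus layer B) of each tested member of the lists of synapse, excitability, wiring, identity and metabolism genes (rows, number of tested members in brackets), 1 point per gene, red where higher in layer A, blue where higher in layer B and grey where not past the threshold. Black bars mark list medians and the dotted line the median of all genes. Most synaptic and channel lists have medians near -1. Among the lists with medians above 0 are those of the mitochondrial genome (2.28), of lipid and apolipoprotein genes (1.95) and of mRNAs known in dendrites (0.70).

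Signalling genes followed their families only in part. Of 24 cyclic nucleotide enzymes 6 rose in layer A and 7 in layer B (median -0.40). Gucy1b1, a subunit of the guanylyl cyclase that nitric oxide activates, measured 21.3, 26.6 and 24.1 CPM in layer A and 88.3, 71.3 and 66.6 CPM in layer B (-1.65 ± 0.28, adjusted p = 0.000575). The phosphodiesterase gene Pde1a measured 45.1, 43.2 and 53.6 CPM against 166, 124 and 124 CPM (-1.54 ± 0.27, adjusted p = 0.000778). The phosphodiesterase genes Pde8a (2.09 ± 0.44), Pde5a (1.52 ± 0.35) and Pde3b (1.62 ± 0.40) were higher in layer A. So were Pde3a (1.63 ± 0.47), though not without layer A replicate 1 or layer B replicate 1 (adjusted p = 0.0653 to 0.0663), Pde1c (1.74 ± 0.55), though not without layer A replicate 1, layer A replicate 2, layer B replicate 1 or layer B replicate 2 (adjusted p = 0.0793 to 0.107), and the adenylyl cyclase gene Adcy5 (0.99 ± 0.30), though not without layer A replicate 1, layer A replicate 2, layer B replicate 1 or layer B replicate 2 (adjusted p = 0.0562 to 0.0999). Without layer A replicate 1 or without layer B replicate 1, 3 members were called in each direction, and 4 were called higher in layer B without layer B replicate 2.

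Of 27 receptor genes for amines and acetylcholine 11 rose in layer B and 1 in layer A (median -1.05). Htr2c, a serotonin receptor, measured 15.5, 29.3 and 17.6 CPM against 91.3, 70.6 and 64.8 CPM (-1.86 ± 0.31, adjusted p = 0.000486). Htr1a, the inhibitory serotonin receptor, measured 1.06, 2.45 and 3.22 CPM against 10.7, 9.25 and 8.39 CPM (-2.01 ± 0.38, adjusted p = 0.00139). Adra1a, an adrenergic receptor, measured 11.9, 6.69 and 6.29 CPM against 1.89, 1.97 and 2.18 CPM (2.03 ± 0.39, adjusted p = 0.00161). Chrna3, a nicotinic receptor subunit, had 0 counts in layer A and 4, 16 and 8 counts in layer B, and no fold is given because the low depth of layer A leaves its floor above the level of layer B. The 11 became 5 or 6 when any one of layer A replicates 1 and 2 and layer B replicates 1 and 2 was left out.

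Neuropeptide precursors had the most negative median of all 58 lists, -1.81, with 8 of 19 genes higher in layer B and none in layer A. Penk, the enkephalin precursor, measured 13.8, 18.3 and 36.8 CPM in layer A and 101, 73.2 and 166 CPM in layer B (-2.29 ± 0.39, adjusted p = 0.00061). Chgb, a protein of dense-core vesicles, measured 149.7, 79.3 and 162 CPM against 336, 418 and 692 CPM (-1.88 ± 0.40, adjusted p = 0.00302). Layer B replicate 3 was the highest sample in both, and without it the median was -0.61, with 4 genes called higher in layer B and 1 in layer A. The count was 3 without layer A replicate 1 and 4 without layer A replicate 2. Among 17 immediate early genes, which neurons switch on within minutes of activity, 5 rose in layer B and none in layer A (median -1.33), a count of 8 without layer B replicate 3 and of 3 without layer A replicate 1. The median was -0.77 without layer B replicate 2. Egr1 measured 27.3, 41.4 and 54.5 CPM against 157, 145 and 121 CPM (-1.77 ± 0.30, adjusted p = 0.000646) and Fosb 2.38, 4.57 and 2.24 CPM against 14.2, 13.6 and 5.56 CPM (-1.87 ± 0.47, adjusted p = 0.00824).

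The neurotrophin gene Bdnf and the gene of its receptor were higher in opposite layers. Bdnf, the brain-derived neurotrophic factor, measured 5.43, 7.7 and 10.8 CPM in layer A and 34.8, 25 and 33.4 CPM in layer B (-1.95 ± 0.32, adjusted p = 0.000478). By contrast, Ntrk2, the gene of its receptor TrkB, measured 945, 677 and 496 CPM against 110.2, 129.6 and 151 CPM (2.44 ± 0.31, adjusted p = 7.14e-05). The Ntrk2 values are those of a single transcript, the most abundant of the gene. Whether it is a neuronal or a glial isoform of the receptor was not examined. How reads shared by isoforms were assigned is not given. Ntf3, neurotrophin 3, had counts of 2, 0 and 10 in layer A and 62, 44 and 116 in layer B (-3.26 ± 0.80, adjusted p = 0.00764). In the list of 7 genes 3 were called higher in layer B and 1 in layer A (median -0.79, and -0.49 without layer B replicate 2).

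Of 31 neuronal transcription factors 11 rose in layer B and 7 in layer A, with a median of -0.49, and the 11 became 6 without layer A replicate 1 and 7 without layer B replicate 1. Factors higher in layer B were Neurod1, Mef2c, Bcl11a, Neurod2, Myt1l, Lmo3, Tbr1, Prdm8, Lmo4, Neurod6 and Bhlhe22, several of them known from excitatory neurons. Higher in layer A were Rorb, Otx1, Nfix, Emx2, Sox5, Foxp1 and Fezf2. Rorb, a nuclear receptor known from layer 4 of the neocortex and from astrocytes, measured 289, 188 and 122 CPM in layer A and 27, 24.2 and 42.5 CPM in layer B (2.67 ± 0.35, adjusted p = 9.12e-05). Otx1, a homeobox factor of deep cortical neurons, measured 4.63, 5.8 and 5.03 CPM against 0.232, 0.657 and 0.485 CPM (3.48 ± 0.60, adjusted p = 0.000719). Nfix (1.83 ± 0.34), Emx2 (2.58 ± 0.56) and Sox5 (1.32 ± 0.31) were past the threshold with adjusted p-values of 0.0013, 0.00341 and 0.00549. Foxp1 (0.96 ± 0.28) lost its call without layer A replicate 1, layer B replicate 1 or layer B replicate 2 (adjusted p = 0.0548 to 0.0966). Fezf2, at 5.29, 2.45 and 3.5 CPM against 0.116, 0.493 and 1.86 CPM (2.13 ± 0.75, adjusted p = 0.0486), lost it without any one of 7 libraries, all but layer B replicate 3 and layer C replicate 3 (adjusted p = 0.0519 to 0.153).

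Guidance genes were split by family. Of 31 genes of semaphorins, plexins and neuropilins 11 rose in layer A and 4 in layer B (median 0.32, and 0.16 without layer A replicate 1). Plxnb1, a receptor for class 4 semaphorins, measured 59.7, 75.8 and 52.9 CPM in layer A and 7.53, 10.3 and 6.55 CPM in layer B (2.95 ± 0.32, adjusted p = 2.8e-05). The secreted ligand gene Sema3d measured 16.1, 10.04 and 11.6 CPM against 1.31, 1.03 and 1.75 CPM (3.19 ± 0.40, adjusted p = 6.63e-05). Sema3e, a ligand of Plexin D1, measured 12.4, 10.6 and 7.23 CPM against 0.849, 1.07 and 2.00 CPM. Sema3a, the ligand of the A-type plexin receptors, measured 3.18, 6.36 and 10.9 CPM against 23.1, 17 and 33.8 CPM (-1.82 ± 0.42, adjusted p = 0.00504) and the receptor gene Plxna4 13.9, 23.5 and 40.1 CPM against 93.8, 89.3 and 58.8 CPM (-1.63 ± 0.36, adjusted p = 0.00417), both higher in layer B. Plxna2 (-1.22 ± 0.33) lost its call without layer A replicate 1, layer A replicate 2, layer B replicate 1 or layer B replicate 2 (adjusted p = 0.0526 to 0.0568) and Sema4f (-1.52 ± 0.43) without layer A replicate 1 or layer A replicate 2 (adjusted p = 0.0781 to 0.0808), and 2 of the 4 were called without layer A replicate 1 or without layer A replicate 2.

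Of 34 genes of ephrins, their receptors, Slit-Robo and netrins 11 rose in layer B and 5 in layer A (median -0.79). Epha4, an ephrin receptor, measured 11.9, 23.2 and 25.2 CPM against 104, 104 and 59.7 CPM (-2.14 ± 0.34, adjusted p = 0.000364). The 5 genes higher in layer A were Ntn1, which codes for netrin 1 (2.61 ± 0.50, adjusted p = 0.00142), Ephb4 and Robo4, both receptors of vascular cells (3.57 ± 0.70 and 2.75 ± 0.55), Ephb1 (1.42 ± 0.33) and Ntn4, a netrin of basement membranes (2.13 ± 0.56, lost without layer B replicate 2 (adjusted p = 0.053)). Of 26 cadherins and protocadherins 10 rose in layer B and 4 in layer A (median -0.40, and -0.61 without layer A replicate 1). Cdh8, a classical cadherin of neurons, measured 3.44, 3.68 and 3.77 CPM against 14.2, 15.3 and 7.98 CPM (-1.78 ± 0.36, adjusted p = 0.00221), while Cdh5, the cadherin of endothelial junctions, measured 21, 11.4 and 21 CPM against 1.12, 1.07 and 1.97 CPM (3.67 ± 0.42, adjusted p = 3.74e-05). Cdh1, the epithelial cadherin, had 12, 11 and 80 counts in layer A and 0 in each layer B sample, at least 9.95-fold higher in layer A at a floor of 3 counts per library. Cdh20 (2.24 ± 0.50, adjusted p = 0.00413) and Pcdh18 (1.76 ± 0.43, adjusted p = 0.00718) were also higher in layer A.

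Of 26 genes of the axonal cytoskeleton and axonal transport 13 rose in layer B and 1 in layer A (median -1.11), a count of 7 without layer A replicate 1 and 5 without layer A replicate 2. Stmn2, a regulator of microtubules in growing axons, measured 69.5, 72.3 and 121 CPM against 256, 216 and 374 CPM (-1.68 ± 0.31, adjusted p = 0.00119). Ina, a neurofilament protein gene, measured 43.4, 35.4 and 48.5 CPM against 110.1, 104 and 95.9 CPM (-1.28 ± 0.28, adjusted p = 0.00354). The exception was Kif5a, a motor of the kinesin family, which stands among the dendritic mRNAs as well, at 1579, 1107 and 913 CPM against 346, 402 and 494 CPM (1.53 ± 0.31, adjusted p = 0.00236). Without layer A replicate 3, 2 genes of this list were called higher in layer A.

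The extracellular matrix was higher in layer A. Of 22 genes of collagens, laminins and basement membranes 15 rose in layer A and none in layer B, with a median of 2.40. Fn1, fibronectin, measured 86.7, 52.1 and 96.7 CPM in layer A and 3.36, 3.7 and 7.9 CPM in layer B (3.97 ± 0.42, adjusted p = 2.8e-05). Nid1, nidogen of basement membranes, measured 31.6, 14.1 and 20.4 CPM against 1.58, 1.48 and 2.89 CPM (3.46 ± 0.42, adjusted p = 5.75e-05). Of 13 genes of perineuronal nets and brain matrix 6 rose in layer A and 2 in layer B (median 1.10). Bcan, the proteoglycan brevican, measured 61, 112 and 110.2 CPM against 10.8, 14.6 and 10.1 CPM (3.00 ± 0.34, adjusted p = 3.35e-05). Hapln1, a link protein that binds hyaluronan to proteoglycans, measured 111, 76.4 and 49.6 CPM against 5.56, 5.05 and 10.4 CPM (3.48 ± 0.39, adjusted p = 3.35e-05). Hapln4, another link protein, was higher in layer B (-1.22 ± 0.40), but not without layer A replicate 1, layer A replicate 3, layer B replicate 1, layer B replicate 2 or layer C replicate 1 (adjusted p = 0.0524 to 0.0859). Matn2, a matrilin, was higher in layer B as well (-1.45 ± 0.43), but not without layer A replicate 1 or layer A replicate 2 (adjusted p = 0.074 to 0.0858).

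In each of 7 lists of growth factor and developmental signalling pathways more members were called higher in layer A than toward layer B, and many were not called. Of 25 genes of the BMP pathway 13 rose in layer A and 1 in layer B (median 1.49). Bmp7, a ligand, measured 24.2, 10.6 and 26.8 CPM in layer A and 1.27, 1.19 and 1.46 CPM in layer B (3.97 ± 0.42, adjusted p = 2.8e-05). A receptor gene for BMPs, Bmpr1b, measured 65, 72.4 and 34.1 CPM against 5.4, 4.56 and 4.56 CPM (3.56 ± 0.34, adjusted p = 1.59e-05). Bmp3, a ligand that opposes other BMPs, measured 10.1, 5.47 and 10.8 CPM against 27.2, 25.9 and 19 CPM (-1.44 ± 0.33, adjusted p = 0.00447). Of 15 genes of TGF-beta and activin signalling 7 rose in layer A and 3 in layer B (median 1.20). The receptor genes Tgfbr2 and Tgfbr1 measured 21.6, 22.9 and 20.9 CPM against 2.35, 1.73 and 3.4 CPM and 58.5, 54 and 24.3 CPM against 8.18, 5.34 and 7.17 CPM. Smad3, which carries the signal to the nucleus, measured 8.47, 15.7 and 22.5 CPM against 61.1, 51 and 32.4 CPM (-1.62 ± 0.38, adjusted p = 0.00552). The activin receptor genes Acvr1c (-1.78 ± 0.48) and Acvr2a (-1.36 ± 0.39) were higher in layer B, the first not without layer A replicate 2 (adjusted p = 0.0542) and the second not without layer A replicate 1, layer A replicate 3 or layer B replicate 1 (adjusted p = 0.0516 to 0.0722).

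Of 17 FGF ligand and receptor genes 8 rose in layer A and 2 in layer B (median 1.30, but 0.33 without layer A replicate 1). Fgfr2, a receptor, measured 93.4, 52.8 and 42.6 CPM in layer A and 4.09, 4.97 and 6.47 CPM in layer B (3.6 ± 0.37, adjusted p = 2.15e-05). Fgf1, a ligand without a secretion signal, measured 129.7, 83.7 and 62.4 CPM against 8.8, 8.26 and 13.5 CPM (3.17 ± 0.36, adjusted p = 3.36e-05). Fgf12 and Fgf14, which belong to the intracellular branch that binds sodium channels, were the exceptions. Fgf12 measured 31.5, 35 and 42 CPM against 80.8, 57.4 and 111 CPM (-1.20 ± 0.29, adjusted p = 0.00689). Fgf14 (-1.12 ± 0.35) lost its call without layer A replicate 1, layer A replicate 3, layer B replicate 1 or layer B replicate 2 (adjusted p = 0.0742 to 0.13). Of 15 Notch pathway genes 8 rose in layer A and none in layer B (median 2.06), and the receptor gene Notch2 measured 44.9, 42.4 and 33.6 CPM against 2.55, 4.89 and 3.91 CPM (3.41 ± 0.34, adjusted p = 2e-05).

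Of 25 Wnt pathway genes 15 rose in layer A and none in layer B (median 1.72). Lef1, a transcription factor at the end of the pathway, measured 6.88, 8.37 and 8.61 CPM in layer A and 0.502, 0.329 and 0.512 CPM in layer B (4.13 ± 0.47, adjusted p = 3.35e-05). The receptor gene Fzd6 measured 15.2, 12.6 and 10.6 CPM against 1.04, 1.27 and 1.05 CPM (3.50 ± 0.40, adjusted p = 3.62e-05). Of 14 retinoic acid genes 6 rose in layer A and none in layer B (median 1.65). Dhrs3, which turns retinal back into retinol, measured 17.6, 20.2 and 12.7 CPM against 1.58, 2.18 and 2.67 CPM (2.96 ± 0.39, adjusted p = 0.000101). Aldh1a2, which makes retinoic acid, measured 15.1, 7.25 and 20.9 CPM against 0.154, 0.0411 and 0.809 CPM (5.32 ± 0.82, adjusted p = 0.00031), with only 4, 1 and 30 counts in the layer B samples. Of 11 insulin-like growth factor genes 4 rose in layer A and none in layer B (median 0.82), with the binding protein gene Igfbp5 at 249, 196 and 169 CPM against 61.4, 55.9 and 19.6 CPM (2.16 ± 0.37, adjusted p = 0.000688), and 2 did so without layer A replicate 3, layer B replicate 1 or layer B replicate 2, while 1 gene was called higher in layer B without layer B replicate 3.

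Transporters of the brain's barriers and immune genes completed the groups higher in layer A. Of 20 barrier transporter genes 18 rose and none fell (median 3.27), and the summed level of the list was even within layers, at 745 to 750.5 CPM in layer A and 148 to 168 CPM in layer B. Slc13a3, a carrier of dicarboxylates, measured 17.3, 20.6 and 29 CPM in layer A and 1.08, 1.6 and 1.05 CPM in layer B (4.17 ± 0.40, adjusted p = 1.59e-05). Slc22a6, a carrier of organic anions, measured 15.2, 5.91 and 19.2 CPM against 0.116, 0.123 and 0.378 CPM (5.93 ± 0.63, adjusted p = 2.8e-05). Of 12 complement genes 9 rose (median 2.46), including the regulator Serping1, at 4.24, 4.69 and 12.6 CPM against 0.232, 0.452 and 0.216 CPM (4.6 ± 0.63, adjusted p = 0.00012). Of 18 genes of the interferon response and MHC class I 8 rose (median 1.47), and 4 did so without layer A replicate 1. H2-K1, a class I chain, measured 14.3, 6.81 and 18.1 CPM against 1.08, 1.81 and 3.99 CPM (2.50 ± 0.55, adjusted p = 0.00361).

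Genes of lipid handling were also mostly higher in layer A. Of 19 genes of lipid handling and apolipoproteins 11 rose in layer A and 1 in layer B (median 1.95), and 2 to 4 were called higher in layer B when layer A replicate 2 or 3, layer B replicate 3, or layer C replicate 2 or 3 was left out. Cpt1a, which brings fatty acids into mitochondria, measured 61.9, 32.1 and 28.4 CPM in layer A and 2.66, 3.45 and 4.07 CPM in layer B (3.58 ± 0.38, adjusted p = 2.63e-05). Pla2g7, a secreted phospholipase, measured 81.3, 103 and 49.2 CPM against 6.99, 6.66 and 11.9 CPM. Acsl4, an acyl-CoA synthetase, was higher in layer B at 15.8, 21.2 and 24.2 CPM against 67.8, 50.5 and 80.8 CPM (-1.70 ± 0.30, adjusted p = 0.00078). Of 17 glycolytic genes 5 rose in layer B and 2 in layer A (median -0.77). Aldoc, the aldolase of astrocytes, measured 682, 681 and 591 CPM against 66.1, 74.4 and 129 CPM (2.86 ± 0.37, adjusted p = 9.26e-05). By contrast, Eno2, the neuronal enolase, measured 42, 73.7 and 95.3 CPM against 189.9, 168 and 164 CPM (-1.30 ± 0.34, adjusted p = 0.0116), not called without layer A replicate 1 (adjusted p = 0.0563). Hk2, a hexokinase, was higher in layer A (2.41 ± 0.63), but not without layer B replicate 1 (adjusted p = 0.0531). No glycolytic gene was called higher in layer B without layer A replicate 1, and the count was 2 without layer A replicate 2 or layer B replicate 3 and 1 without layer C replicate 1.

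Nuclear-encoded genes of the respiratory chain and genes of the mitochondrial genome formed separate lists. Of 57 nuclear-encoded genes none was called in either direction by edgeR, the median was -0.39, and the largest and smallest log2 fold changes were 0.55 and -1.23. At an unadjusted p-value under 0.05 there was 1, higher in layer B, and DESeq2 called none. Without a filter on low counts 6 were called, all higher in layer B. The median turned to 0.37 without layer B replicate 3, when 2 genes were called higher in layer A, and 1 was called higher in layer B without layer A replicate 3. The median was -0.67 to -0.61 without layer A replicate 3, layer B replicate 1 or layer B replicate 2. Of 10 tested genes of the mitochondrial genome 5 rose in layer A (median 2.28, from 1.5 to 2.96), and the number was 10 without layer B replicate 3, 2 without layer B replicate 1, and 3 without layer A replicate 1 or layer B replicate 2. The median was 1.48 without layer A replicate 1 and 3.47 without layer B replicate 3. Of the 5 genes, mt-Rnr1 and mt-Rnr2 are ribosomal RNAs, and mt-Co1, mt-Cytb and mt-Nd3 code for respiratory chain subunits, while mt-Rnr1 was not called without layer B replicate 1 (adjusted p = 0.0504). mt-Co1, a subunit of cytochrome c oxidase, measured 3861, 2544 and 1165 CPM in layer A and 207, 276 and 493 CPM in layer B (2.96 ± 0.55, adjusted p = 0.00127). Layer A replicate 1 was highest and layer B replicate 1 lowest.

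Of 56 tested ribosomal protein genes 3 rose in layer A and none in layer B (median 0.29), with log2 fold changes from -1.71 to 3.70. The 5.36% higher in layer A compare with 14.9% of all genes. The median was 0.05 without layer A replicate 3, 0.46 without layer A replicate 1 and 0.69 without layer B replicate 3. The highest, Rpl23a, measured 8.07, 5.58 and 3.93 CPM against 0.347, 0.370 and 0.593 CPM, and genes of this family share reads with many processed pseudogenes, so that single values are uncertain. Rps15 lost its call without layer A replicate 1, layer A replicate 3, layer B replicate 1 or layer B replicate 2 (adjusted p = 0.055 to 0.0739). Of the family 1 gene was called without layer A replicate 3, layer B replicate 1 or layer B replicate 2, and 5 were called without layer B replicate 3. Of 27 proteasome genes 1, Psmd14, was called, higher in layer B (-1.08 ± 0.38, adjusted p = 0.0478), and it was lost without layer A replicate 1, layer A replicate 2, layer A replicate 3, layer B replicate 3, layer C replicate 1, layer C replicate 2 or layer C replicate 3 (adjusted p = 0.0563 to 0.29), while 2 were called without layer B replicate 1 and 3 without layer B replicate 2. The median, -0.74, was -0.20 without layer B replicate 3. Of 24 chaperone genes Hsph1, Dnajb1 and Hsp90ab1 rose in layer B, and Cryab, a small heat shock protein of oligodendrocytes and astrocytes, rose in layer A (1.97 ± 0.53, adjusted p = 0.0127), though not without layer B replicate 1 (adjusted p = 0.0538). The 12.5% of chaperone genes higher in layer B compare with 9.49% of all genes. The median of the chaperone list, -0.68, was -0.17 without layer B replicate 3. Of 20 cholesterol synthesis genes Cyp51, Lss and Sc5d rose in layer A, which is 15% against 14.9% of all genes. The list median was 0.39, but 0.19 and 0.22 without layer A replicate 2 or 3. None was called without layer A replicate 1 or layer B replicate 1, and 1 was called without layer A replicate 2 or layer B replicate 2. Among 7 genes of cell division Ccnd2 rose in layer A (1.15 ± 0.38, adjusted p = 0.0393), which is 14.3% of the list against 14.9% of all genes. Ccnd2 lost its call without layer A replicate 1, layer A replicate 2, layer B replicate 1, layer B replicate 3 or layer C replicate 1 (adjusted p = 0.057 to 0.133). The list median, 0.70, was 0.45 without layer B replicate 1.

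Noncoding transcripts were few among the called genes and among all genes tested. Protein-coding genes made up 2148 of the 2257 genes higher in layer A and 1388 of the 1441 higher in layer B. They also made up 13550 of the 15185 genes tested. Among 4 nuclear long noncoding RNAs Neat1, the scaffold of paraspeckles, measured 89.6, 58.1 and 146 CPM in layer A and 4.98, 10.2 and 5.74 CPM in layer B (3.81 ± 0.48, adjusted p = 6.87e-05). By contrast, Malat1 measured 6015, 3077 and 3697 CPM against 2212, 3968 and 1575 CPM and was not called (adjusted p = 0.413). Of 472 antisense genes 38 were higher in layer A and 16 in layer B, to be read against 14.9% and 9.49% of all genes. The libraries did not keep the strand, so that reads of antisense genes cannot be told apart from those of the genes they overlap. Of 16 mitochondrial transfer RNA genes 6 were higher in layer A.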

How the data were processed

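RNA was measured by sequencing in laser-captured samples of 3 layers, 3 samples each, after amplification and library preparation that did not keep the strand. The files hold counts of reads per transcript identifier, which the authors deposited without normalization. Per the study's methods and the submitters' processing notes, base calls came from bcl2fastq (1.8.4), reads were aligned with Bowtie to mm10, and HTSeq (0.5.3) counted them; how a read shared by several transcripts was assigned is not given in the sources used here. Of 95533 identifiers, 82807 (86.7%) were found in GENCODE annotation of GRCm38. The others stayed out of library sizes and tests and held 4.41% to 13.7% of counts in the samples of layers A and B.

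Each gene was represented by the transcript with the highest mean normalized count over all 9 samples. Of 33984 genes, the 15185 that reached 10 counts in 3 or more samples were tested with edgeR (4.0.16, quasi-likelihood F-test, TMM) with all 9 samples in the fit, and p-values were adjusted over all of them by Benjamini-Hochberg. DESeq2 (1.42.0) was an alternative. The scripts were tested on simulated data. Members and gene lists were chosen with earlier results of these data known. The genes named were the 12 with the largest fold change in each direction among protein-coding genes past the threshold with at least 10 counts in each of the 6 samples and no overlap, the 6 most abundant in each direction with at most 3 counts in each sample of the other layer, the 3 members of each list with the smallest p-values, and every member called against the majority of its list. The other members named, among them Adarb2, Chrna3, Dlx1, Drd1, Eef2, Hsp90ab1, Kcnj3, Kcnj6, Kcnj9, Psd, Syn1, Syn2 and 10 transcription factors, were chosen after their values were seen. Depth was 23271221 to 44224318 counts per sample and sets the precision of low genes, more so in layer A. A few genes that the rule selects are not reported here.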

Additional observations from a re-analysis of the deposited data

Results flagged for a closer look

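Counts on identifiers outside the annotation belong to no comparison between genes. Their mean share was 12.45% in layer B (13.7%, 13.2% and 10.4% in replicates 1, 2 and 3) and 5.38% in layer A (4.41%, 5.09% and 6.63%), without overlap, a difference of -7.08 percentage points (layer A minus layer B) at the smallest p-value of an exact two-sided permutation test of 3 against 3 samples (p = 0.1). What these identifiers are was not tested.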

How the results depend on the processing

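No call shared with an alternative changed direction under any of 23 alternatives, and the number of genes called lay between 2559 and 4530. Leaving out 1 library at a time gave 789 to 1531 genes higher in layer B (1441 with all libraries), the lowest values being 789 and 891 without layer A replicates 1 and 2 and 906 without layer B replicate 1. An unadjusted p-value gave 2489. Genes without overlap and higher in layer B numbered 3207 to 4409 with 1 library left out (2852 with all), since fewer samples have to be separate. Sst, at -2.18, lay between -2.67 and 0.0894 with 1 library left out and was reversed without layer B replicate 3, the sample that held most of its layer B counts. With the replicate number as a block 3832 genes were called, and 4515 with a GC and length offset as well. Deviations of same-numbered samples correlated at -0.11 to 0.20, over 0.1 in 5 of 9 pairs, among them the 3 pairs of replicate 3 (0.11 to 0.20), the deepest library of each layer. Since the other 4 pairs stayed under 0.1, and layer A replicates 1 and 2 correlated best with another number, the samples were not treated as paired. Of 233 named genes 220 were called, and 181 of these under every alternative that gave a value. Of 58 lists, 5 changed the sign of their median under some alternative, namely choroid plexus, claustrum, postsynaptic scaffolds, nuclear respiratory genes and nuclear long noncoding RNAs. Low depth outside the mitochondrial genome limits what can be seen in layer A, above all in layer A replicates 1 and 2. The cause of these changes was not tested unless stated.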
